A study of Mus musculus with 9 samples.

Results

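Melanosome genes encode the proteins of the organelle in which pigment cells make and store melanin. The set held 10 genes chosen for this role from knowledge of the organelle: the enzymes Tyr, Tyrp1 and Dct, the structural proteins Pmel and Mlana, the membrane proteins Slc45a2, Oca2, Slc24a5 and Gpr143, and the transcription factor Mitf. Of the 10 genes, 9 had at least 1 probe set that the platform annotation assigned to a single gene symbol, with 15 probe sets in all among the 45101 of the array. Slc24a5, a cation exchanger, was not listed there and was not analysed here. In the RefSeq annotation of GRCm38.p6 the 9 genes lie on chromosomes 4 (Tyrp1), 6 (Mitf), 7 (Tyr and Oca2), 10 (Pmel), 14 (Dct), 15 (Slc45a2), 19 (Mlana) and X (Gpr143).

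RNA came from the neurosensory retina of female Babl/c mice (BALB/c in the usual spelling) aged 10 weeks, measured on 9 Affymetrix Mouse Genome 430 2.0 arrays, each from a pool of 3 right-eye retinas. Mice lived for 14 days under white LED lamps of either 7378K or 2954K, where the figure is the colour temperature of the lamp and the higher one is the bluer, cold white, and the controls stayed in a relatively dark environment, with 3 arrays each. Illuminance was 1000 lx in both LED groups, and the cycle was 12 h with light and 12 h without. The controls had the same cycle, per the labels, which state no light level for them and no allele beyond the strain. The labels call the arrays of a group biological replicates, and the p-values measure the spread between these pools.

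Melanin is made in melanosomes by pigment cells, which in the eye are the retinal pigment epithelium behind the photoreceptors, the pigmented layers of the iris and ciliary body, and the melanocytes of the choroid and iris. Tyr, tyrosinase, carries out the first and rate-limiting step of melanin synthesis, and Tyrp1 and Dct are related enzymes that act later in the pathway. BALB/c mice are albino because they carry a missense allele of Tyr that leaves no working enzyme, so their pigment cells hold melanosome proteins without melanin. The neurosensory retina has no pigment cells of its own. MITF, a basic helix-loop-helix factor, drives transcription of melanosome genes through promoter motifs known as E-boxes, of which the M-box is the longer form found in the genes of the tyrosinase family.

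The promoters of the tyrosinase family, Tyr, Tyrp1 and Dct, carry the letters of this motif. Moving together from array to array was not particular to these 3 genes. Tyrp1 with Dct had the highest Pearson correlation, 0.982. Tyr correlated by 0.894 with Tyrp1 and 0.899 with Dct, but by 0.922 with Slc45a2 and 0.911 with Mlana, and less with the remaining genes. No promoter sequence was at hand for Slc45a2 and Mlana. A part of the motif in these correlations was not tested. RefSeq promoter windows of GRCm38.p6, 250 bases before to 50 bases after an annotated start, were at hand for 6 of the 10 genes. The letters TCATGTG, on either strand, were found in the windows of 4 of the 6 genes, Tyr, Tyrp1, Dct and Slc24a5, against 4.31% of all 27025 genes with a window (3.77% of 32851 windows). The shorter E-box CATGTG, which the longer motif contains, was found in 5 of the 6, with Oca2 added, against 15.89% of all genes (14.15% of windows). Neither was found in the 3 Mitf windows, and Rpe65, a gene of the pigment epithelium set beside the melanosome genes below, had CATGTG but not TCATGTG. The 250 bases before the annotated start are printed 5′ to 3′ on the gene's own strand, with TCATGTG or its reverse complement CACATGA in capitals. They lie at chr7:87493513-87493762 on the minus strand for Tyr, at chr4:80833963-80834212 on the plus strand for Tyrp1 and at chr14:118052247-118052496 on the minus strand for Dct.
Tyr: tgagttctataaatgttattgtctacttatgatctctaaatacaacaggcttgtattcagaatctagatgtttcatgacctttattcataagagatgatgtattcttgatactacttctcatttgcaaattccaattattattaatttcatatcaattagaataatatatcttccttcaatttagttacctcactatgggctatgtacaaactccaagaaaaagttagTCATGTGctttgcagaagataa
Tyrp1: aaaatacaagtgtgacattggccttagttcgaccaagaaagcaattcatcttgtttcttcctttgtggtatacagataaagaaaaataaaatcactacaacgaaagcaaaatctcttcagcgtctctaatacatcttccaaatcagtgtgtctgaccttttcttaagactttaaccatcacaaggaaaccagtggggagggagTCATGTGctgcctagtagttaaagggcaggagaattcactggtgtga
Dct: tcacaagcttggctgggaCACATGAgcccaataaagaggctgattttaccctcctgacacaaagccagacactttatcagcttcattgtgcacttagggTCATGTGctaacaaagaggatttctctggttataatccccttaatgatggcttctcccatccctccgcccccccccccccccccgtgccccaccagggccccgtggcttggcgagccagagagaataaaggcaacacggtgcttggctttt
The motif begins 22 bases before the annotated start in Tyr and 47 bases before it in Tyrp1. Dct holds 2 matches, 151 and 232 bases before the start, the farther one on the opposite strand. A match of letters is a description of the sequence and not a measured binding site.

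Values are log2 signals of a probe set, a group of short oligonucleotides for 1 transcript, and a difference of 1 is a 2-fold difference in signal. Each gene is given by the probe set whose mean over all 9 arrays was highest. A gene was tested if that mean was at least 5.91, the 40th percentile of all probe sets that are not controls, which left 12765 of 18193 genes and all 9 measured melanosome genes. Of their 15 probe sets 11 passed. Gpr143 lay just inside, with a mean of 6.0, and the 4 probe sets just or far outside had means of 5.43 and below. Signals of different probe sets are not on a common scale, so levels are compared between arrays and not between genes.

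Before any group comparison, the arrays labelled replicate 3 stood apart from the others of their groups. Crybb2, a lens crystallin, measured 9.99 in 7378K replicate 3, 12.63 in 2954K replicate 3 and 14.75 in control replicate 3, and 3.08 to 7.69 on the other 6 arrays. The 3' minus 5' difference of the Gapdh and beta-actin control probe sets, which grows when 5' ends are lost, was 1.55 to 1.80 in the 7378K arrays, 0.21 to 2.78 in the 2954K arrays and 0.20 to 0.42 in the controls. Median signals of the arrays were 6.77 to 7.03. Rod genes marked the tissue as retina, Gnat1 and Sag measuring 14.39 to 15.09 on every array. Genes of the pigment epithelium were measured too, 13 of 14 markers passing the filter. Best1 was the exception and stayed at 1.97 to 3.69.

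Tyrp1, which stabilises tyrosinase and acts late in melanin synthesis, measured 7.49, 8.02 and 9.41 in the 7378K replicates 1 to 3, 9.64, 8.79 and 12.15 in the 2954K replicates 1 to 3, against 7.73, 7.33 and 10.40 in the control replicates 1 to 3. Replicate 3 was the highest of each group, and the groups overlapped. The range over all arrays was 28.1-fold in signal.

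Dct, dopachrome tautomerase, measured 9.68, 9.79 and 11.01 in the 7378K arrays, 11.21, 10.66 and 13.22 in the 2954K arrays, against 9.09, 8.88 and 12.19 in the controls. Its range was 20.2-fold, with the same array highest in each group as for Tyrp1. All 3 2954K arrays lay above control replicates 1 and 2, and control replicate 3 lay above 2954K replicates 1 and 2.

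Tyr measured 5.31, 5.44 and 6.0 under 7378K light, 6.93, 6.11 and 8.99 under 2954K light, against 4.32, 6.16 and 8.25 in the controls. Transcript signal of the gene whose allele makes the strain albino was therefore above the filter value on 6 of 9 arrays. In the 7378K group only replicate 3 reached it, and all 3 arrays of that group lay below all 3 of the 2954K group.

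Pmel, the protein that forms the fibrils on which melanin is laid down, had the widest range of the 9 genes, 147.8-fold. It measured 4.38, 6.87 and 7.19 in the 7378K arrays, 8.56, 5.04 and 11.59 in the 2954K arrays, against 6.22, 6.55 and 9.78 in the controls. The second lowest value of all 9 arrays, in 2954K replicate 2, and the highest, in 2954K replicate 3, fell in the same group. The lowest, in 7378K replicate 1, and the second lowest lay below the filter value, so the fold range is imprecise.

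Mlana, also called MART-1, a small membrane protein needed for normal Pmel processing, measured 5.19, 4.73 and 6.66 under 7378K light, 8.44, 5.16 and 10.56 under 2954K light, against 4.89, 5.07 and 8.65 in the controls. It was above the filter value on 4 arrays, the 3 arrays labelled replicate 3 and 2954K replicate 1, and below it on the other 5.

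The transporters varied less. Slc45a2, a proton-coupled sugar transporter of the melanosome membrane, measured 6.34, 7.03 and 6.79 in the 7378K arrays, 7.11, 7.02 and 8.29 in the 2954K arrays, against 5.60, 6.45 and 7.57 in the controls. Oca2, an anion channel protein that keeps melanosomes from becoming too acidic, measured 6.85, 7.37 and 7.42 in the 7378K arrays, 7.20, 7.64 and 7.86 in the 2954K arrays, against 7.28, 7.22 and 8.49 in the controls. For Oca2 the highest of the 9 arrays was control replicate 3, and for Slc45a2 it was 2954K replicate 3.

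Gpr143, the receptor mutated in human ocular albinism, which controls melanosome size and number, measured 5.41, 5.75 and 6.93 in the 7378K arrays, 5.76, 7.09 and 6.56 in the 2954K arrays, against 5.38, 4.87 and 6.24 in the controls. It was the one gene of the 9 whose highest 2954K value was in replicate 2 and not replicate 3. Its signal was above the filter value on 4 of the 9 arrays.

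Mitf, which is also expressed outside pigment cells, had the narrowest range, 1.92-fold. It measured 8.73, 8.77 and 8.99 in the 7378K arrays, 9.07, 8.85 and 9.52 in the 2954K arrays, against 8.65, 8.58 and 8.89 in the controls. The order of the arrays within each group had replicate 3 on top here as well, at a much smaller scale.

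**Figure D1:**
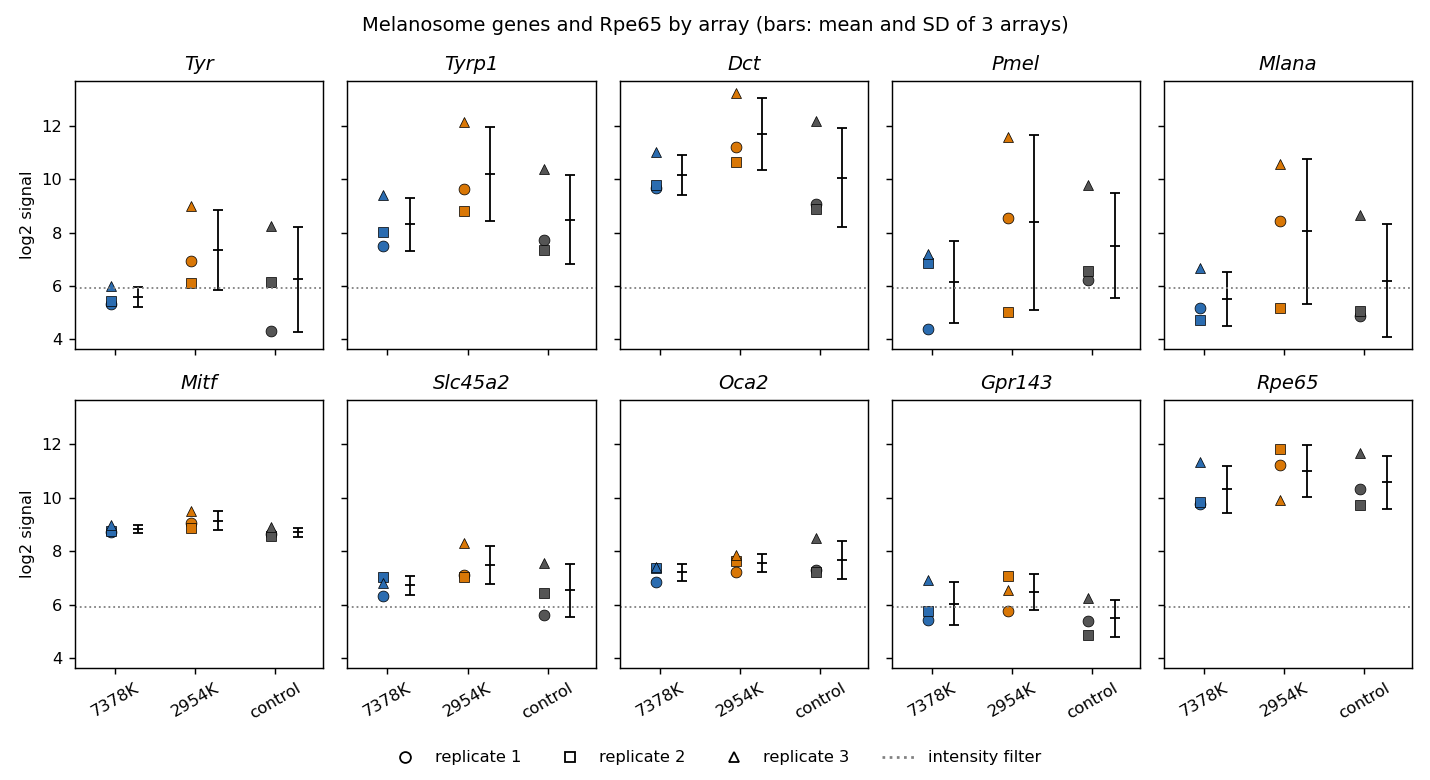
Log2 signal (y axis) of the 9 melanosome genes and of Rpe65 in the 3 arrays of each group (x axis), with symbols for the replicate number and bars for the mean and SD of 3 arrays. Triangles, replicate 3, are the highest of all 3 groups for 7 of the 9 melanosome genes, and for Rpe65 the 2954K triangle is the lowest of its group at 9.92.

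Replicate 3 gave the highest signal of its group for 8 of 9 melanosome genes under 7378K light, for 8 of 9 under 2954K light and for 9 of 9 in the controls. Over all 12765 genes the shares were 30.4%, 28.9% and 40.3%. In all 3 groups at once it was the highest for 7 of the 9 genes, Tyr, Tyrp1, Dct, Pmel, Mlana, Mitf and Oca2, against 4.11% of all genes. The SD within groups, pooled over the 3 groups with 6 residual degrees of freedom, had a median of 1.39 for the 9 genes and of 0.20 for all genes tested. Pmel, at 2.38, and Mlana, at 2.07, stood at the 99.9th percentile of all genes, and Mitf, at 0.23, at the 59.3rd.

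The 9 genes went up and down together. All 36 pairwise Pearson correlations over the 9 arrays were above 0, from 0.25 for Pmel with Gpr143 to 0.98 for Tyrp1 with Dct, with a median of 0.80. With the group means removed they ran from 0.23 to 0.98, with a median of 0.83. These values share arrays, scaling and depth of each pool and are descriptive. Gpr143 stood farthest from the rest, at 0.25 to 0.66 with the other 8 genes.

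Where a gene had several probe sets, they did not always follow each other. Of the 3 Tyrp1 probe sets, the second gave 7.00, 7.00 and 8.32 in the 7378K arrays, 9.62, 8.27 and 11.79 in the 2954K arrays, against 7.45, 2.66 and 8.93 in the controls, with a Pearson correlation of 0.84 to the first over 9 arrays. The remaining one gave 6.44, 6.12 and 6.80 in the 7378K arrays, 6.28, 8.42 and 10.18 in the 2954K arrays, against 7.02, 6.83 and 9.26 in the controls (0.78 to the first). Of 2954K replicates 1 and 2, replicate 1 was the higher in the first and second of these probe sets and the lower in the remaining one. The other probe sets of Tyr, Slc45a2 and Mitf had means below the filter value, and their correlations with the main probe set were 0.61 and 0.69 for Tyr, 0.30 for Slc45a2 and -0.16 for Mitf.

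Rpe65, the isomerase of the visual cycle and a defining gene of the pigment epithelium, shared the order of the melanosome genes over the arrays only in part. It measured 9.78, 9.85 and 11.34 in the 7378K arrays, 11.23, 11.83 and 9.92 in the 2954K arrays, against 10.34, 9.73 and 11.67 in the controls. Replicate 3 was its highest array in the 7378K group and in the controls, as for most melanosome genes, but not in the 2954K group. The 2954K array with the highest Tyrp1, Dct, Pmel and Mlana of all 9 arrays, replicate 3, had the lowest Rpe65 of its group. 2954K replicate 2, with the highest Rpe65 of all arrays, had 5.04 for Pmel and 5.16 for Mlana, both below the filter value. On that array Gpr143, at 7.09, was the highest of the 9 arrays. Tyrp1, at 8.79, and Dct, at 10.66, were the lowest of the 2954K group there, but above control replicates 1 and 2.

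Over the 9 arrays, the Pearson correlation of the melanosome genes with Rpe65 was 0.08 for Pmel, 0.13 for Mitf, 0.22 for Tyr and Mlana, 0.32 for Tyrp1, 0.39 for Dct and 0.51 for Oca2. None of the 9 relations passed (exact two-sided permutation test of Pearson's r, Benjamini-Hochberg adjusted p of 0.482 to 0.837, and 0 at an unadjusted p under 0.05). Gpr143 had the highest, with r = 0.68 (exact permutation p = 0.0536, adjusted p = 0.482) and Spearman's rho = 0.78 (exact permutation p = 0.0172, adjusted p = 0.155). With only 4 of the 9 arrays above the filter value, its signals are imprecise. Spearman's rho of the other 8 ran from 0.22 to 0.60, with adjusted p of 0.290 to 0.581 by exact permutation. Within groups, with group means removed and arrays permuted within groups, r was 0.73 for Gpr143 (exact p = 0.0556, adjusted p = 0.50), 0.18 for Tyrp1, -0.07 for Pmel and 0.05 for Mlana. Without control replicate 3 and 2954K replicate 2, the arrays farthest from the median of Rpe65, r was 0.53 for Gpr143, 0.28 for Dct and 0.05 for Oca2, so that the value of Oca2 rested on those arrays. The relations also depended on 2954K replicate 3. Without it, r was 0.86 for Tyrp1, 0.84 for Dct, 0.83 for Gpr143 and 0.43 to 0.74 for the other 6, with adjusted p of 0.053 for Tyrp1, Dct and Gpr143 (exact permutation over 8 arrays), and again none passed.

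**Figure D2:**
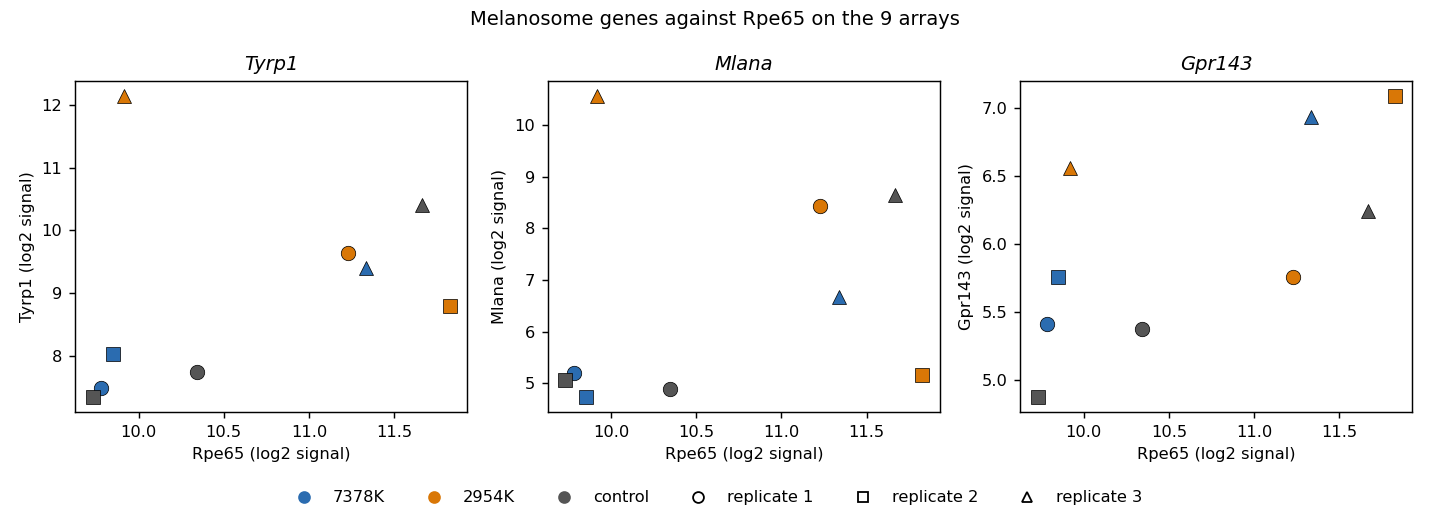
Log2 signal of Tyrp1, Mlana and Gpr143 (y axes) against that of Rpe65 (x axis) on the 9 arrays, coloured by group, with symbols for the replicate number. The 2954K replicate 3 array, at 9.92 for Rpe65, lies at the top left for Tyrp1 and Mlana, and for Gpr143 (r = 0.68) the arrays with more Rpe65 tend to lie higher.

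The other pigment epithelium markers were counted together with Rpe65. Of the 13 that passed the filter, 2954K replicate 3 was the lowest of its group for 10 (29.5% of all genes) and the highest for 0, while it was the lowest for 0 of the 9 melanosome genes. 7378K replicate 3 was the highest of its group for all 13 markers that passed, and control replicate 3 for 11. In a linear sum the brightest probe sets weigh most, and of these markers Ttr was the brightest, at 13.18 to 15.05. Summed over the 13, the linear signal was 40975 to 63905 in the 7378K arrays, 41288 to 69100 in the 2954K arrays and 36281 to 64408 in the controls, with 41288 in 2954K replicate 3. Summed over the 9 melanosome genes it was 1758 to 3964 in the 7378K arrays, 3131 to 20550 in the 2954K arrays and 1481 to 8701 in the controls, with 20550 in 2954K replicate 3.

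Lens markers were high in replicate 3 of every group, and connective tissue markers in replicate 3 of the 2954K and control groups but not of the 7378K group. The sum over the 6 lens genes of 11 that passed was 185 to 2785 under 7378K light, 102 to 14162 under 2954K light and 241 to 77714 in the controls, its highest value in each group being that of replicate 3. Replicate 3 was the highest in all 3 groups for 5 of these 6. Dcn, decorin of the extracellular matrix, measured 5.94, 2.94 and 3.89 in the 7378K arrays, 7.35, 6.41 and 9.73 in the 2954K arrays, against 5.99, 5.64 and 8.61 in the controls. Replicate 3 was the highest for 0 of the 3 connective tissue genes that passed, of 5, in the 7378K group, and for 3 of 3 in both the 2954K group and the controls. These 3 summed to 286 to 454 in the 7378K arrays, 338 to 1775 in the 2954K arrays and 335 to 1163 in the controls. For the 3 of 8 muscle genes that passed the sums were 360 to 536 in the 7378K arrays, 349 to 470 in the 2954K arrays and 382 to 1513 in the controls, with 1513 in control replicate 3. The sums of the 7 rod genes that passed differed less, at 107879 to 125634 in the 7378K arrays, 106089 to 134871 in the 2954K arrays and 123024 to 152193 in the controls. Single rod genes did differ. For 7378K against control, 4 of the 7, Cngb1, Cnga1, Prph2 and Rom1, were lower (limma adjusted p of 0.00682 to 0.0317), where 3.52% of all genes were called. For 2954K against control 0 of the 7 passed. The part of these tissues in the melanosome signals was not tested.

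**Figure D3:**
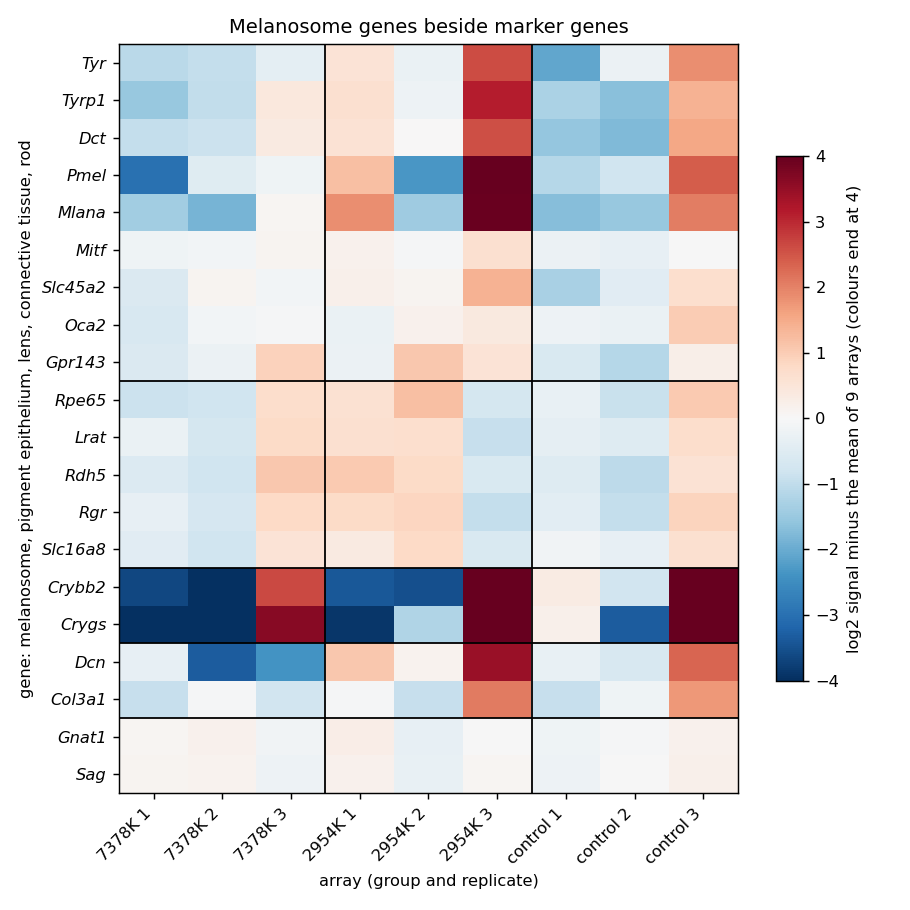
Log2 signal minus the mean of the 9 arrays (colour, red higher, blue lower) for the 9 melanosome genes and for markers of pigment epithelium, lens, connective tissue and rods (rows) on each array (columns, grouped as 7378K, 2954K and control). Marker rows are a selection. In 2954K replicate 3 the melanosome, lens and connective tissue rows are red and the 5 pigment epithelium rows shown blue, while 3 of the 13 pigment epithelium markers that passed, Otx2, Krt8 and Krt18, none of them drawn, lay above their 9-array means there.

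Melanocyte genes outside the set gave no uniform picture. Of the markers of choroidal melanocytes that are not melanosome genes, Sox10, Pax3, Kit, Mc1r and Ednrb all passed the filter, and none was at 0. Sox10, a transcription factor of melanocytes and of other neural crest cells, was the lowest of its group in 2954K replicate 3, at 5.69 against 6.84 and 6.63 in replicates 1 and 2. Ednrb, an endothelin receptor that melanoblasts need and that Müller glia also express, was the highest of its group in each replicate 3, at 8.70 in the 7378K group, 8.80 in the 2954K group and 8.43 in the controls. Its correlation with the 9 melanosome genes averaged 0.75 over the 9 arrays, and that of Trpm1, a channel of melanocytes and of ON bipolar cells, 0.76. Ednrb and Trpm1 were singled out after their values were seen. For the other choroidal markers listed, the mean correlation was -0.63 for Kit, -0.53 for Sox10, -0.48 for Mc1r and 0.085 for Pax3. The median over the 11 lineage genes was -0.07, and 0.01 over all genes.

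Among all 12765 genes, those with the highest mean correlation to the 9 melanosome genes, predicted genes left out, were Mgll, Tgfbr3, Niban1, Ddr2, Islr, Cnn2, Gja1, Slc3a2, Ifitm1 and Slc4a5, with means of 0.82 to 0.86 over the 9 arrays. Gja1, the gap junction protein of the connexin family, measured 9.27, 8.71 and 10.05 in the 7378K arrays, 10.71, 9.11 and 12.32 in the 2954K arrays, against 8.28, 7.61 and 11.89 in the controls. Islr, a membrane protein of stromal cells, measured 5.91, 6.02 and 6.96 in the 7378K arrays, 7.33, 6.0 and 9.09 in the 2954K arrays, against 5.88, 5.65 and 9.09 in the controls. Replicate 3 was the highest of its group for both. Others were Ddr2, a collagen receptor, Tgfbr3, a co-receptor for transforming growth factor beta, Mgll, a lipase of endocannabinoid breakdown, Slc3a2, a subunit of amino acid transporters, and Slc4a5, a sodium bicarbonate cotransporter. Of the 10 genes, 4 ranged over less than 1 on the log2 scale, Mgll, Slc3a2, Slc4a5 and Cnn2.

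Differences between the light groups were set against this spread. The first comparison asked whether melanosome transcripts differed between retinas under cold white light and those of the controls. In limma, 0 of the 9 genes passed an adjusted p of 0.05 and 0 reached an unadjusted p under 0.05, where 3.52% of all 12765 genes were called and 22.6% reached that unadjusted p. Differences ran from -1.37 for Pmel to 0.54 for Gpr143, 4 of 9 above 0 (56% of all genes), with a median of -0.18 (0.04 over all genes) and limma adjusted p of 0.462 to 0.953. Groups did not overlap for 0 of 9 genes, and for 36.4% of all genes. Tyrp1 averaged 8.30 ± 0.99 under 7378K light and 8.49 ± 1.67 in the controls (SD, n = 3), a difference of -0.18 with a 95% interval of -2.10 to 1.74. The median was 0.13 without the arrays labelled replicate 3, 0.55 without control replicate 3 and 0.18 without 7378K replicate 1, so its sign rested on single arrays. It was -0.67, -0.56 and -0.55 without control replicate 2, control replicate 1 and 7378K replicate 3, and -0.04 without 7378K replicate 2. In pooled tissue, the number of cells of a type, in the retina or in tissue beside it, and the RNA per cell cannot be told apart.

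Under warm white light of 2954K the means of 8 of the 9 genes lay above those of the controls, all but Oca2, with a median difference of 0.97 (0.01 over all genes, 51.8% of which lay above 0). Again 0 of the 9 passed in limma (adjusted p of 0.325 to 0.934), with 1.22% of all genes called. Only Mitf reached an unadjusted p under 0.05 (13.1% of all genes did), at 9.15 ± 0.34 under 2954K light and 8.71 ± 0.16 in the controls (SD, n = 3), a difference of 0.44 ± 0.18 (SE, limma adjusted p = 0.325). Tyrp1 averaged 10.19 ± 1.74 under 2954K light and 8.49 ± 1.67 in the controls, a difference of 1.71 (95% interval -0.21 to 3.63). Dct averaged 11.70 ± 1.35 under 2954K light and 10.05 ± 1.85 in the controls, a difference of 1.65 (-0.12 to 3.41). Mlana differed by 1.85 (-0.84 to 4.53) and Tyr by 1.10 (-0.83 to 3.02). Groups did not overlap for 0 of 9 genes, and for 15.2% of all.

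This comparison depended on which arrays entered it. For Tyrp1 and Dct it also depended on whether the replicate number entered the fit as a block, as given in the last paragraph. Without control replicate 3, Dct passed, with a difference of 2.71 (limma adjusted p = 0.0498). Without the arrays labelled replicate 3 in every group it differed by 1.95 (limma adjusted p = 0.0041, n = 2 per group), from 10.66 and 11.21 in the 2954K arrays against 8.88 and 9.09 in the controls. Over all alternatives tried the adjusted p of Dct ran from 0.0041 to 0.776. The difference of Pmel was 0.88 with all arrays and -0.72 without 2954K replicate 3. The median of the 9 genes was 2.01 without control replicate 3, 0.46 without control replicate 1, 0.52 without 2954K replicate 3 and 1.72 without 2954K replicate 2.

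Between the lights, all 9 genes had lower means under 7378K than under 2954K light, with a median difference of -1.54 (0.03 over all genes, 56.4% of which lay above 0). None passed in limma (adjusted p = 0.978 for each, and 0 at an unadjusted p under 0.05), and 0% of all 12765 genes were called, 519 of them (4.07%) reaching an unadjusted p under 0.05. Tyrp1 came nearest, with a difference of -1.89 (95% interval -3.81 to 0.03), followed by Mlana with -2.52 (-5.21 to 0.16) and Tyr with -1.76 (-3.69 to 0.16). Groups did not overlap for 1 of the 9 genes, Tyr, lower in all 3 of the 7378K arrays, against 8.55% of all genes in either direction and 3.28% lower. The median was -0.66 without 2954K replicate 3 and -1.14 without the arrays labelled replicate 3.

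**Figure D4:**
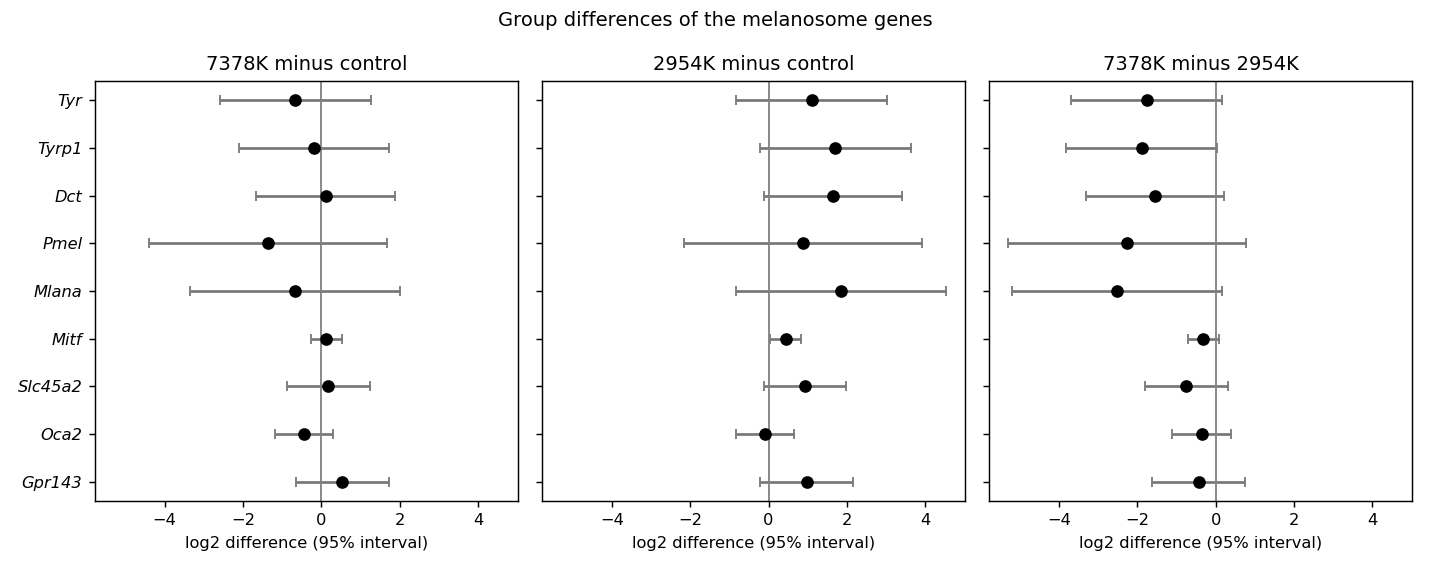
Differences in log2 signal with 95% intervals from limma (x axis) for the 9 melanosome genes (rows) in the 3 comparisons between groups. For 7378K minus 2954K all 9 points lie below 0 and all 9 intervals include 0, and in 2954K minus control the interval of Mitf, 0.05 to 0.83, is the one that leaves 0 out.

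For both LED groups together against the controls, 0 of the 9 genes passed and 0 reached an unadjusted p under 0.05 (21.6% of all genes did), with limma adjusted p of 0.315 to 0.931 and a median difference of 0.56, 7 of 9 above 0 (54% of all genes), and 3.45% of all genes were called. That median was 0.09 without control replicate 1, 0.18 without control replicate 2, 1.13 without control replicate 3, 0.19 without 2954K replicate 3 and 0.30 without 7378K replicate 3. Dct differed by 0.88 ± 0.70 (SE), and by 1.35 without the arrays labelled replicate 3 (limma adjusted p = 0.00686). Rpe65 differed by 0.08 (95% interval -0.98 to 1.13, limma adjusted p = 0.95).

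The wider machinery that builds and moves melanosomes is shared with lysosomes and other organelles of many cells. The linear sum, in which the brightest probe sets weigh most, over the 25 of 30 such genes that passed was 30929 to 32997 in the 7378K arrays, 31748 to 32358 in the 2954K arrays and 30086 to 32745 in the controls. With both LED groups against the controls 1 of 25 rose, 0 fell and 24 did not pass, with a median difference of -0.01. That share is near the 3.45% called among all genes, and nothing about the machinery as a group is read from it. The gene was Hps4, a subunit of the BLOC-3 complex that activates RAB32 and RAB38, at 10.51, 10.49 and 10.71 in the 7378K arrays, 10.73, 10.15 and 10.52 in the 2954K arrays, against 10.06, 9.84 and 10.07 in the controls. Its difference was 0.53 ± 0.13 (SE, limma adjusted p = 0.0409). Leaving out single arrays ended the call in 7 of 9 cases, with a limma adjusted p up to 0.223 without control replicate 2. With a covariate for the 3' minus 5' difference the value was 0.28 (limma adjusted p = 0.456). Atp7a, the copper transporter that supplies tyrosinase, differed by 0.31 (limma adjusted p = 0.0912), Snapin by -0.38 (0.126) and Dtnbp1 by -0.32 (0.152), both subunits of BLOC-1. For each LED group alone against the controls 0 of the 25 passed in limma, with 6 at an unadjusted p under 0.05 for 7378K (22.6% of all genes) and 3 for 2954K (13.1% of all genes), shares near those of all genes.

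A few genes of this machinery followed the melanosome genes over the arrays. Rab38, a GTPase that carries melanin enzymes to the melanosome, measured 7.36, 7.31 and 7.54 in the 7378K arrays, 7.95, 7.97 and 8.32 in the 2954K arrays, against 7.47, 7.66 and 8.27 in the controls. Gpnmb, a relative of Pmel that macrophages and microglia express as well, measured 8.30, 8.58 and 8.89 in the 7378K arrays, 9.43, 8.64 and 11.50 in the 2954K arrays, against 8.63, 9.75 and 9.99 in the controls. Their mean correlations with the 9 genes were 0.76 for Rab38 and 0.71 for Gpnmb, the highest of the 25, whose median was -0.01. Mreg, melanoregulin, had the lowest, -0.74, with 11.57 in 2954K replicate 3, the lowest of the 9 arrays. Tpcn2, a cation channel of melanosomes and endolysosomes, ranged from 4.53 to 6.79 with a mean correlation of -0.14. For Rab38 and Gpnmb, 7378K replicate 3 stood below control replicate 3.

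Of the 11 tested genes of the melanocyte lineage and its signalling 0 passed for both LED groups against the controls, with 0 at an unadjusted p under 0.05. Kitl, the ligand of the KIT receptor, differed by 0.22 (limma adjusted p = 0.257), Ednrb by 0.38 (0.349), Mc1r, the melanocortin receptor, by -0.21 (0.447) and Kit by -0.32 (0.491). The factors related to MITF, Tfe3 and Tfeb, differed by 0.29 (0.237) and 0.53 (0.489), and Tfec was at 0.11 to 2.93 and was not tested. Of the 13 pigment epithelium markers 1 passed, where 3.45% of all genes did. Krt18, an epithelial keratin, rose, by 0.39 ± 0.09 (SE, limma adjusted p = 0.029), a call that ended in 6 of 9 cases when single arrays were left out, with a limma adjusted p up to 0.214 without control replicate 2. It measured 11.90, 11.93 and 11.98 in the 7378K arrays, 11.91, 12.03 and 12.00 in the 2954K arrays, against 11.53, 11.41 and 11.75 in the controls. Stra6, a retinol transporter, differed by 1.27 (0.258), Krt8 by 0.50 (0.308) and Rrh, a retinal photoisomerase, by -0.28 (0.35).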

How the data were processed

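Retinal RNA of 9 pools was measured on Affymetrix Mouse Genome 430 2.0 arrays. The deposited values are log2 signals, 1 per probe set, and the submitters' processing notes name MAS5 and affy, with no version or role. From the values, the 2% trimmed mean of each array's linear signals is 500, a global scaling. No detection calls were used here. MAS5 signals scatter widely where a probe set is dim, so low values are imprecise, and the 3 arrays per group limit the precision.

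Probe sets were named from the platform annotation, in which 34945 had 1 gene symbol, 932 had several and 9160 had none. For each gene the probe set with the highest mean was kept, and genes below the 40th percentile were left out. All 9 arrays entered 1 fit in limma 3.58.1 (R 4.3.3) with an intensity trend, and p-values were Benjamini-Hochberg adjusted over 12765 genes. The procedure was tested on simulated data. Exact permutations used 362880 orders of the arrays, or 216 within groups.

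The genes and lists were chosen with earlier results of these data known. Genes named were all melanosome genes, Rpe65, the 10 most alike in pattern and up to 4 per other list with the smallest p, with others said to be chosen after their values were seen. Crybb2, Dcn, Gnat1, Sag, Sox10, Trpm1, Otx2, Mreg, Tpcn2, Rab38 and Gpnmb were named in that way. So were Rlbp1, Ttr, Cnga1, Cngb1, Prph2 and Rom1. Alternatives were another normalization, filter, probe set rule and variance model, arrays left out, a replicate block and a covariate for 3' bias.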

Additional observations from a re-analysis of the deposited data

How the results depend on the processing

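Of 628 differences of melanosome genes under 18 alternatives, 597 kept their direction and side of the threshold, 5 passed it and 26 turned sign. Leaving out 1 array gave 144 to 1517 called genes for 7378K against control (449 with all arrays), 79 to 895 for 2954K against control (156), 0 to 29 for 7378K against 2954K (0) and 164 to 1847 for both LED groups against control (441). The melanosome genes called for 2954K against control were 0 to 1. When all probe sets of a gene were averaged, 255 genes were called for 7378K, 82 for 2954K and 245 for both LED groups against control. Without the intensity trend these counts were 207 for 7378K, 101 for 2954K and 265 for both. Without the arrays labelled replicate 3 they were 146 for 7378K, 90 for 2954K and 164 for both, and with the 3' minus 5' covariate 136 for 7378K, 102 for 2954K and 153 for both. Averaged probe sets gave 128 higher and 127 lower calls for 7378K against control, where the main setting gave 301 higher and 148 lower. Without the arrays labelled replicate 3, 1 melanosome gene, Dct, was called for 2954K and 1 for both LED groups together.

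Signs of genes that passed no test turned in several settings. For 7378K against control, leaving out 1 array gave -1.62 to 0.34 for Tyr, -0.76 to 0.77 for Tyrp1, -0.48 to 1.17 for Dct, -1.33 to 0.55 for Mlana and -0.29 to 0.70 for Slc45a2, and leaving out all arrays labelled replicate 3 gave 0.13 for Tyr and 0.22 for Tyrp1. For 2954K against control it gave -0.72 to 2.56 for Pmel and -0.32 to 0.32 for Oca2, with Oca2 at 0.17 without the arrays labelled replicate 3, and Pmel at -0.0314 and Oca2 at 0.0911 with the covariate. For both LED groups it gave -0.74 to 1.22 for Tyr, -1.04 to 0.89 for Pmel, -0.069 to 1.81 for Mlana and -0.50 to 0.14 for Oca2, with Oca2 at 0.0175 without the arrays labelled replicate 3, Mlana at -0.53 with the covariate, and Kitl at -0.34 and Ednrb at -0.11 with the mean of probe sets. Correlations with Rpe65 ran from -0.12 to 0.43 for Pmel and -0.033 to 0.74 for Mitf, and that of Slc45a2 was -0.004 without the 2 arrays farthest from the median. The causes were not tested.

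Arrays with the same replicate number correlated by 0.06 to 0.33 after removal of group means, over 0.1 in 5 of 9 pairs. Arrays of different groups with different numbers correlated by -0.265 to 0.092, and 7 of 9 arrays correlated best with their own number. The labels give no litter, batch or day behind a number, and the main fit did not take the numbers as a pairing. Any difference shared by arrays of the same number therefore stayed in the spread of the main tests. With the replicate number as a block, 2 melanosome genes passed for 2954K against control in limma, Tyrp1 (1.71, adjusted p = 0.0195) and Dct (1.65, adjusted p = 0.0251).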
